A study of Mus musculus with 6 samples.

Results

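Dntt encodes terminal deoxynucleotidyl transferase, a DNA polymerase that adds nucleotides to a DNA end without copying a template. It was followed here as 1 gene of the 14986 in a table of sorted mouse long-term haematopoietic stem cells (LT-HSCs), taken by its gene symbol. The gene was chosen by its measured difference between the genotypes, so the values that chose it, its own levels in these libraries, are given as a description and carry no test. RNA was sequenced from 6 bone marrow samples, 3 labelled wild type and 3 labelled Zcchc8 KO, with 1500 sorted LT-HSCs of lineage-depleted marrow behind each library and amplified cDNA of polyadenylated RNA as the material. ZCCHC8 is a subunit of the nuclear exosome targeting complex, which brings short-lived nuclear RNA to the exosome, and the study asked how the RNA content of LT-HSCs differs when it is depleted. The sources used here do not give how the knockout was made, the age or strain of the mice, whether animals were pooled, or the surface markers of the sort. The labels do not tie replicates to separate animals, so every p-value below measures only the spread between these libraries, which may be technical. Zcchc8 itself was not lower in the libraries labelled KO. It was at 8.93, 5.24 and 5.16 FPKM in those of wild type, against 10.4, 5.54 and 5.92 in KO (limma adjusted p = 0.94, FPKM and the test being explained below). A value summed over all exons need not show a deletion, so this value is no check of the genotype labels, and KO here always means the libraries labelled KO.

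Terminal transferase works during V(D)J recombination, the assembly of antigen receptor genes from separate segments in developing B and T cells. The RAG proteins cut the segments, the end-joining machinery rejoins them, and terminal transferase inserts untemplated bases at the junctions, which widens receptor diversity. In adult marrow its transcript is known as an early mark of lymphoid priming in multipotent progenitors and of common lymphoid and pro-B progenitors, more than of long-term stem cells.

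Dntt (ENSMUSG00000025014.13) lies on chromosome 19 at 41029275 to 41059525, plus strand, in the GRCm38 assembly, the assembly of mm10. Its merged exons cover 2292 bases and no other annotated gene overlaps it, so its value does not share reads with a neighbour by position. The annotation holds 2 coding transcripts. Dntt-201 has 12 exons and Dntt-202 has 11, and they differ by exon 11, a coding exon of 60 bases at 41058567 to 41058626 that Dntt-202 skips. The stretch is shown because 1 value per gene sums all annotated forms, and this is where the 2 coding ones part. Another annotated transcript, Dntt-203, has 7 exons and ends before this exon, at 41043965. Capitals mark the alternative exon and lower case the 20 bases on each side, as in the GENCODE transcripts.
Dntt-201: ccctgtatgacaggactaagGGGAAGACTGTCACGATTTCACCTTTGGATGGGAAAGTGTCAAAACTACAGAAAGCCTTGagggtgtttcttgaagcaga
Dntt-202: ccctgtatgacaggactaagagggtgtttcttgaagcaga
Which form the libraries held was not measured by these values.

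The sequence around the annotated start of Dntt-201 is shown because Ikaros, E proteins and ETS proteins are known regulators of lymphoid genes and read short DNA motifs. It runs from 250 bases before the start to 30 bases after it (chr19:41029025-41029304, GRCm38.p6, plus strand, from RefSeq), with the Ikaros core motif TGGGA in capitals.
Dntt promoter: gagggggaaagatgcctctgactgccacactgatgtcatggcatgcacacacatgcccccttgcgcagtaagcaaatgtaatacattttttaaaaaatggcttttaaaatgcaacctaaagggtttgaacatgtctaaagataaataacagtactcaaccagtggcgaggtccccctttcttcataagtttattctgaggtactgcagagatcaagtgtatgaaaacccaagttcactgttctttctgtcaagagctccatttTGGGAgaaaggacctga
Both strands of the 300-base window, which goes on to 50 bases after the start, were searched. TGGGA occurs once, at position 14 counted from 1 at the start, and 61.6% of the 32851 windows of the same length around mouse gene starts hold it. The E-box CANNTG, the motif of E proteins such as TCF3, occurs at positions -201, -178 and -38 before the start, and 72.3% of windows hold one. The ETS core GGAA occurs at -245 and at 44, with 96.0% of windows holding it. TATAAA is not in this window and is in 13.6% of all. None of the motif matches overlap each other. The matches describe letters only, and Dntt-202 starts 107 bases further on.

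In wild type, Dntt was among the lower levels of the table. FPKM counts reads scaled by exon length and by library size, so levels of different genes can be set side by side per length. Dntt stood at 1.91, 0.596 and 1.59 FPKM in wild-type libraries 1, 2 and 3, from 79, 25 and 69 reads. Wild-type library 2 was the lowest of the 3, at a level 3.20 times below that of library 1, and 18.2% to 32.5% of the table's genes were below Dntt in these libraries. In the KO libraries Dntt stood at 18.8, 16.5 and 11.6 FPKM, from 1110, 719 and 556 reads. Here 68.8% to 78.1% of genes were below it, and KO library 3 was the lowest.

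The groups did not overlap. The lowest KO level was 6.10 times the highest wild-type level. Group means were 1.37 ± 0.685 FPKM in the wild-type group, against 15.7 ± 3.67 in KO (SD, n = 3 each), a ratio of 11.5. On the log2(FPKM + 1) scale, which understates the change of a gene as low as this one in wild type, the difference was 2.84 ± 0.33 (SE), at rank 7 of the 11837 tested genes ordered from the highest rise, while it ranked 21 by the ratio of means. Leaving out each library in turn gave 2.58 to 3.03.

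Reads limited the wild-type values most. The exact 95% Poisson interval was 0.386 to 0.880 FPKM for wild-type library 2 and 1.51 to 2.38 for library 1, and these do not overlap. The narrowest in relation to its level was that of KO library 1, at 17.7 to 19.98 FPKM. Such intervals cover counting error only, since amplified cDNA without molecular identifiers repeats molecules. A sorted pool gives 1 value for all its cells, so a larger number of cells with Dntt and more Dntt RNA per cell cannot be told apart.

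**Figure D1:**
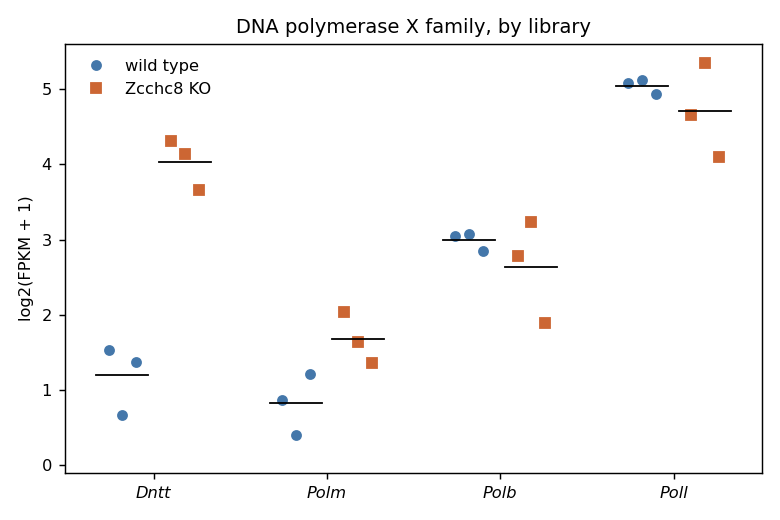
Levels of Dntt and the 3 other DNA polymerase X genes as log2(FPKM + 1), with 1 point per library (circles wild type, squares Zcchc8 KO) and a bar at each group mean. The KO points of Dntt lie above all its wild-type points, while Polb and Poll overlap between the groups.

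Dntt belongs to the DNA polymerase X family with Polm, its closest relative and a polymerase of end joining, Poll, which fills gaps in end joining and base excision repair, and Polb, the main gap-filling polymerase of base excision repair. In wild type, Dntt made up 1.42% to 4.46% of the summed FPKM of the 4 genes, and in KO 24.7% to 36.3%. Polm was at 0.833, 0.329 and 1.32 FPKM in the wild-type group, against 3.09, 2.12 and 1.56 in KO. The Polm groups did not overlap either, but the log2 difference of 0.85 ± 0.38 (SE) did not pass the test (limma adjusted p = 0.55), and Polm is above the filter on low values only through its KO libraries.

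Poll, the highest of the family per length, was at 32.8, 33.8 and 29.6 FPKM in the wild-type group, against 24.3, 39.9 and 16.1 in KO. Polb was at 7.29, 7.39 and 6.23 FPKM and at 5.91, 8.45 and 2.72. For both, KO library 2 was above and KO libraries 1 and 3 below every wild-type library, and neither passed (limma adjusted p = 0.76 and 0.81). In order of level, Poll, Polb, Dntt and Polm followed each other in wild type, with the ranges of Dntt and Polm overlapping. In KO, Dntt stood between Poll and Polb, its 11.6 to 18.8 FPKM overlapping the range of Poll. Of the named interactors, Dnttip1, Dnttip2 and the sliding clamp Pcna, none passed, and their log2 changes had a median of 0.08.

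The test behind every adjusted p was limma on log2(FPKM + 1) with an adjusted p under 0.05 as the threshold. Of the 11837 tested genes, 21 (0.177%) were higher and 6 (0.0507%) lower in KO. These counts were 8 to 14 and 1 to 5 when a library was left out. At an unadjusted p of 0.05, 4.87% of tested genes were higher and 4.33% lower. Every KO library was above every wild-type library for 8.24% of tested genes and below for 6.99%. The median log2 change of all tested genes was 0.00. Dntt was taken from the same contrast, so these shares are the setting for the lists below and no support for Dntt.

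The genes of the cutting and joining steps were described next, since terminal transferase acts between them. Rag1 and Rag2, whose products make the recombinase, were low in both groups. Rag1 stood at 0.126, 0.753 and 0.0560 FPKM in the wild-type group, against 0.606, 0.447 and 0 in KO. Rag2 was listed at 0, 0 and 1.56 FPKM in the wild-type group, against 0.0454, 0.616 and 0.337 in KO. The groups overlap for both genes, each had libraries with 7 reads or fewer, and both fell below the filter of a mean of 1 FPKM, so neither was tested.

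Of the 13 genes listed for V(D)J cleavage and joining, 8 were tested, 4 higher and 4 lower by value, and none passed. Their median log2 change was 0.11. At an unadjusted p of 0.05, 1 was higher, Xrcc6, the Ku70 subunit of the end-binding Ku dimer, with 19.9 ± 1.22 FPKM in the wild-type group, against 27.5 ± 4.37 in KO (SD, n = 3, limma adjusted p = 0.51). Its partner Xrcc5, Ku80, stood at 8.81 ± 0.823 and 11.2 ± 0.729 FPKM, also without overlap and without passing (limma adjusted p = 0.71). Nhej1, the joining factor XLF, stood at 6.39, 1.27 and 5.44 FPKM and at 9.29, 8.21 and 4.34, and the RAG cofactor Hmgb2 at 114 ± 7.07 and 135 ± 16.3, both overlapping between groups.

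**Figure D2:**
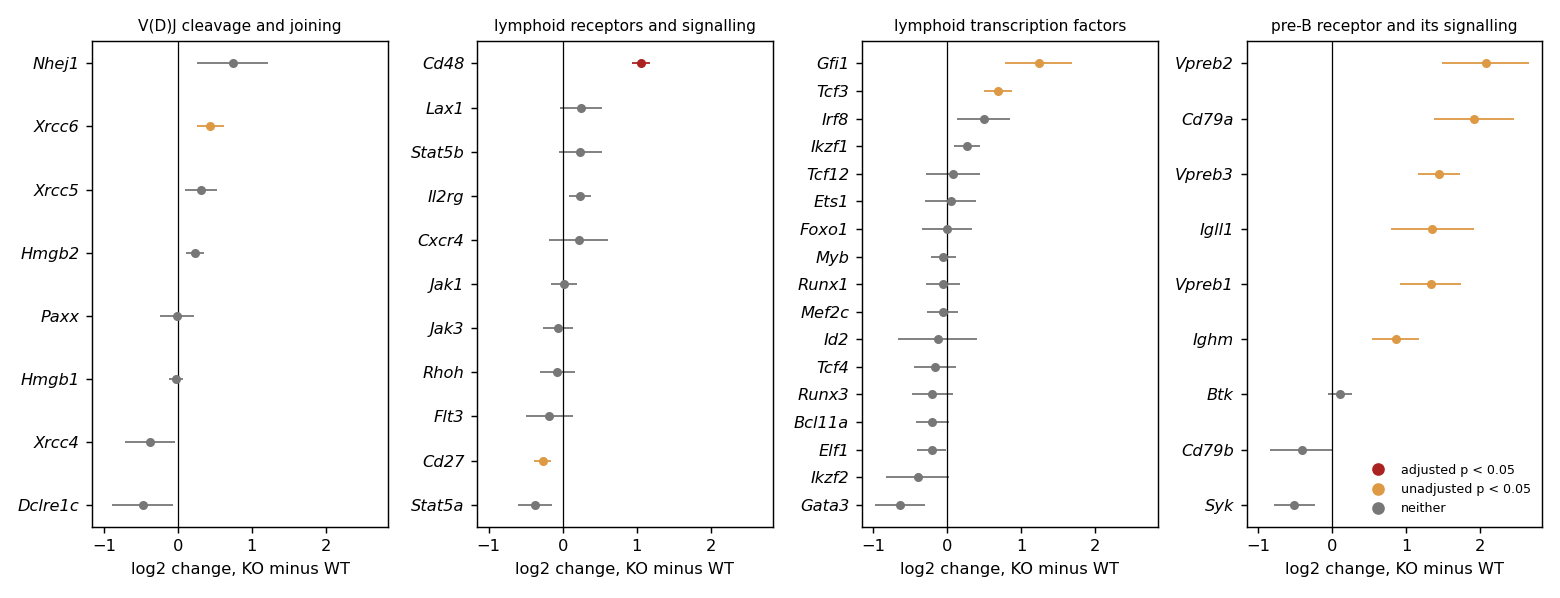
Log2 change (KO minus wild type) with its standard error for tested members of 4 lists, with Dntt and 1 gene that is not reported left out. Cd48 is the 1 gene past an adjusted p of 0.05, and the points of 6 pre-B receptor genes lie at 0.86 or more.

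Among receptors and signalling genes of early lymphoid cells, 12 of 17 were tested and 1 rose, Cd48, against 0.177% of all tested genes. Cd48 encodes a SLAM family surface protein that long-term stem cells lack or carry at low level and multipotent progenitors carry. Cd48 stood at 45.2, 52.4 and 52.0 FPKM in the wild-type group, against 100.1, 106.1 and 108.2 in KO, a ratio of 2.10 and a log2 change of 1.06 ± 0.12 (SE, limma adjusted p = 0.0122). All KO libraries were above all wild-type libraries. The call held without KO library 1 (limma adjusted p = 0.0423) and ended without any of the other 5 (limma adjusted p from 0.0504 to 0.0691), with log2 changes of 0.99 to 1.09. It also ended in a fit without a variance trend (limma adjusted p = 0.19) and in limma-voom on reads recovered from the FPKM (adjusted p = 0.119).

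Flt3, the cytokine receptor whose rise marks the step to lymphoid-primed progenitors, was at 2.76, 5.12 and 3.91 FPKM in the wild-type group, against 4.13, 3.04 and 2.74 in KO. The groups overlap and the log2 change was -0.18 ± 0.32 (SE, limma adjusted p = 0.91). Il7r, the receptor subunit that common lymphoid progenitors depend on, was listed at 0.629, 0 and 0.0113 FPKM in the wild-type group, against 0, 1.006 and 0.154 in KO. It was too low to be tested, with 53 reads in 1 wild-type library and 89 in 1 KO library holding most of its signal. Cd27, a TNF receptor family member, was lower in KO without overlap, at 104 ± 7.62 and 86.0 ± 5.10 FPKM (SD, n = 3, limma adjusted p = 0.52), and Stat5a, a transducer of cytokine signals, stood at 27.7 ± 3.22 and 21.7 ± 5.97. The list had 7 members higher and 5 lower by value, with a median log2 change of 0.12. Ccr9, Ccr7 and Ly6d were not analysed here.

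Of 26 lymphoid transcription factor genes 17 were tested, and none passed. They were 6 higher and 11 lower by value, and their median log2 change was -0.06. Of the 17, 2 had an unadjusted p under 0.05, both higher, where 4.87% of all tested genes were higher at this threshold. Tcf3, which encodes the E proteins E12 and E47 of lymphoid commitment, was at 14.0, 19.6 and 17.6 FPKM in the wild-type group, against 30.5, 26.5 and 26.6 in KO, all KO libraries being above all wild-type ones (limma adjusted p = 0.29). Gfi1, a zinc finger repressor, stood at 1.008, 0.343 and 3.37 FPKM and at 4.74, 4.78 and 3.63 (limma adjusted p = 0.45). The highest wild-type and the lowest KO library of Gfi1 were close to each other. Ikzf1, which encodes Ikaros, was at 17.3 ± 1.39 and 20.95 ± 1.16 FPKM (SD, n = 3), without overlap (limma adjusted p = 0.69). Gata3, a T lineage factor that stem cells also express, was at 15.7 ± 6.64 and 9.17 ± 1.69 FPKM (limma adjusted p = 0.60).

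The 2 factors that commit cells to the B lineage were low. Ebf1 stood at 0.704, 0.0112 and 0.0163 FPKM in the wild-type group, against 1.59, 0.470 and 0.625 in KO, with wild-type library 1 above 2 of the KO libraries. Pax5 was at 0.025, 0 and 0.0119 FPKM, from 4, 0 and 2 reads, and at 0.690, 0.161 and 0.0434, from 157, 27 and 8 reads. Its KO libraries were all above its wild-type libraries, though KO library 3 was near the wild-type level. Both were below the filter and were not tested.

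In the pre-B receptor list no member passed, while most members were higher by value. This receptor pairs an immunoglobulin heavy chain with a surrogate light chain and signals through CD79. Of 11 genes 9 were tested, 7 were higher and 2 lower by value, and the median log2 change was 1.33. At an unadjusted p of 0.05, 6 were higher, and the same number did not overlap between the groups, where 4.87% and 8.24% of all tested genes did so. Several of these genes were already known from earlier work on these data to be higher, so their counts are no independent support for Dntt.

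Vpreb1 and Vpreb2, near-identical genes of the surrogate light chain between which reads can be misplaced, differed in level. Vpreb1 was at 14.96, 14.2 and 4.23 FPKM in the wild-type group, against 22.2, 34.8 and 23.4 in KO (limma adjusted p = 0.35). Vpreb2 was at 4.30, 0.144 and 0.139 FPKM and at 8.25, 8.20 and 5.06 (limma adjusted p = 0.30), its wild-type signal coming almost wholly from library 1. Igll1, the other surrogate light chain gene, was at 7.27, 7.15 and 1.20 FPKM and at 23.4, 9.84 and 8.39 (limma adjusted p = 0.51). In all 3 genes, wild-type library 1 was the highest of its group, as it was for Dntt, though in Vpreb1 and Igll1 library 2 was close to it. The lowest of the group was library 3 in all 3 genes, where in Dntt it was library 2.

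Vpreb3, which encodes a protein that binds immunoglobulin chains inside early B cells, had the smallest p of the list, at 9.02, 5.03 and 8.31 FPKM in the wild-type group, against 18.7, 18.0 and 29.4 in KO (limma adjusted p = 0.129). Cd79a, a signalling chain of the receptor, was at 0.0760, 4.16 and 1.16 FPKM and at 9.56, 5.54 and 8.40 (limma adjusted p = 0.29). Cd79b, the other chain, showed no such order, with 40.8, 28.2 and 35.8 FPKM in the wild-type group, against 11.01, 37.3 and 40.7 in KO.

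**Figure D3:**
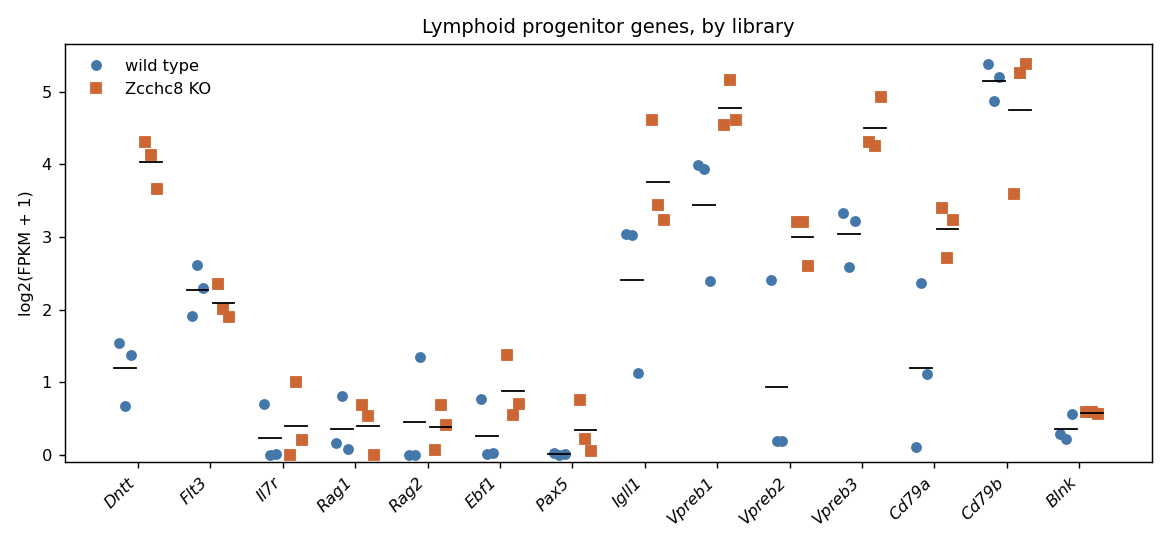
Levels of Dntt and 13 genes of lymphoid progenitors as log2(FPKM + 1), with 1 point per library and a bar at each group mean. The surrogate light chain genes, Vpreb3 and Cd79a lie higher in KO with wide spread, while Flt3, Il7r, Rag1 and Rag2 overlap between the groups.

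Set against these genes by level, Dntt in KO (11.6 to 18.8 FPKM) lay in the range of Igll1 (8.39 to 23.4) and below Vpreb1 (22.2 to 34.8). It was above Rag1, Rag2, Il7r, Ebf1 and Pax5 in every KO library, each of which was at 1.59 FPKM or less there. In wild type Dntt overlapped Cd79a and Vpreb2 and was below Vpreb3 in every library. Of the antigen receptor genes, both constant regions and variable segments, 11 immunoglobulin and T cell receptor genes were in the table and 9 were tested. Igkc, the kappa constant region, went from 774, 746 and 866 FPKM in the wild-type group to 0, 0 and 1.35 in KO. It is above the filter only through its wild-type libraries, so no call is given for it. None of the other tested genes of this list passed. Igkc and Dntt thus differed in opposite directions between the same libraries. The other 10 genes ranged from 0 to 18.0 FPKM, the highest being the heavy chain gene Ighm.

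Marker lists of the sorted cells and of other blood cells were summed beside Dntt. All 13 LT-HSC markers were tested, with a median log2 change of -0.37. None passed. Of the 13, 6 were lower in every KO library than in any of wild type (6.99% of all tested genes), and 6 were lower at an unadjusted p under 0.05 (4.33% of all). Their summed level was 433 to 492 FPKM in wild type and 335 to 390 in KO. The 10 B progenitor markers, 5 of which are also in the pre-B receptor list, summed to 45.1 to 64.6 FPKM in wild type and 71.7 to 90.2 in KO, with 4 tested and none past the threshold. Of the 4 tested, Igll1, Vpreb1 and Cd79a were higher in every KO library than in any of wild type, and Cd79b overlapped. Of all tested genes, 8.24% were higher in this way. These 4 are all in the pre-B receptor list too, so they add no separate count to it. The untested Pax5 was also higher in every KO library, at 0 to 0.025 FPKM in wild type and 0.0434 to 0.690 in KO. Rag1, Rag2 and Il7r overlapped between the groups and were each listed at 0 in at least 1 library. For T cells and thymocytes 4 of 10 markers were in the table, with sums of 4.93 to 14.9 and 14.1 to 22.2 FPKM and none called. Of the plasmacytoid dendritic cell markers, 1 of 6 was in the table, the broadly expressed Bst2, at 123 to 156 and 107 to 153 FPKM. For mature B cells and plasma cells, 2 of 6 and 2 of 5 markers were in the table and none was called.

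Outside the lymphoid lineages, the 4 eosinophil markers in the table summed to 0.116 to 1.02 FPKM in wild type and 161 to 205 in KO. They are above the filter only through their KO libraries, so no count of calls is given for them. The erythroid markers summed to 115 to 149 and 436 to 465 FPKM, with 4 of 7 tested genes called higher, against 0.177% of all. The neutrophil markers summed to 2687 to 2892 and 3593 to 4008 FPKM, with 1 of 7 called higher, against 0.177% of all. The called one had the largest part of this sum, at 1321 to 1426 and 1887 to 2101 FPKM. By value 5 members were higher and 2 lower, with 4 above and 1 below in every KO library. The one below was Mpo, at 64.4, 66.1 and 72.1 FPKM in the wild-type group, against 55.2, 48.1 and 46.4 in KO (limma adjusted p = 0.34). Elane overlapped, at 120 to 142 and 111 to 160 FPKM. The part of B progenitors and of these other cells in the level of Dntt was not tested.

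None of the tested neighbours of Dntt on its chromosome passed. Within 500 kb of Dntt on either side the annotation has 12 protein-coding genes, 10 of them in the table and 7 tested. None of the 7 had an unadjusted p under 0.05, and 3 were higher by value. Blnk, an adaptor of B cell receptor signalling whose gene ends 34.7 kb before Dntt, was at 0.222, 0.164 and 0.477 FPKM in the wild-type group, against 0.506, 0.511 and 0.481 in KO. These Blnk values came from 18 to 78 reads and were below the filter. Zfp518a, a zinc finger gene 111 kb away, was at 1.06, 1.92 and 1.65 FPKM and at 1.501, 1.25 and 2.85 (limma adjusted p = 0.94). On the other side Opalin, 2.19 kb away, and Tll2 were not analysed here.

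**Figure D4:**
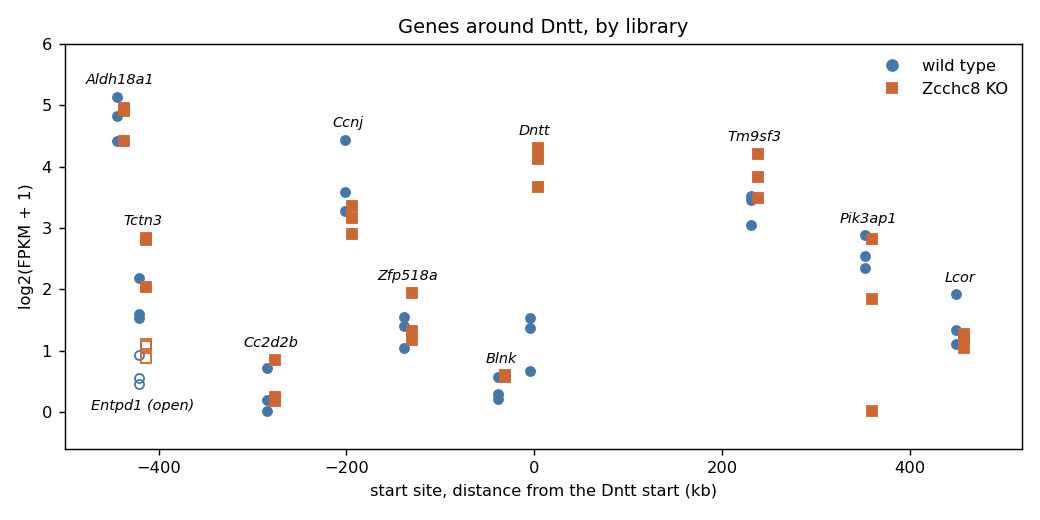
Levels of Dntt and the 10 protein-coding genes within 500 kb that are in the table, as log2(FPKM + 1), against the distance of their start sites from that of Dntt in kb (circles wild type, squares KO, 1 point per library, open symbols Entpd1, whose start lies next to that of Tctn3). The KO points of Dntt lie above all its wild-type points, and none of the 7 tested neighbours passed the test.

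The genes whose pattern over the 6 libraries was most like that of Dntt were ranked by Pearson's r on log2(FPKM + 1), leaving out predicted symbols. The 6 points of each r share their 2 groups, so r is high for a gene that merely separates them. It was at least 0.95 for 51 tested genes and at least 0.90 for 180. The highest were Mrps31 (r = 0.993), a mitochondrial ribosomal protein gene, Sltm (0.984), a nuclear RNA-binding protein gene, Nhp2 (0.980), of the H/ACA particles that guide pseudouridylation, Podxl (0.979), a sialomucin, Prg3 (0.978), an eosinophil granule gene, and Cd53 (0.977), a leukocyte tetraspanin. Dntt was chosen for its difference between the groups, so genes picked for likeness to it had to differ too, and their differences are given with no test. Prg3 went from 0.117, 0 and 0 FPKM to 15.5, 14.3 and 14.5, and it is above the filter only through its KO libraries. Cd53 went from 36.7, 31.3 and 28.2 to 85.0, 88.8 and 75.1 FPKM, a ratio of 2.59. Neither gene overlapped between the groups.

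The likeness was in shape and not in size. Mrps31 was at 8.68 ± 0.530 FPKM in the wild-type group, against 11.9 ± 0.634 in KO (SD, n = 3), a ratio of 1.37 where that of Dntt was 11.5. Sltm had a ratio of 1.42, Nhp2 1.35 and Podxl 2.71. These 4 genes all had wild-type library 2 as their lowest library, as Dntt did. Their choice by r over the same libraries favours such a match, so it is no separate result. Among the lymphoid genes, r with Dntt was 0.942 for Cd48, 0.912 for Vpreb3, 0.871 for Vpreb2, 0.852 for Tcf3, 0.694 for Cd79a and 0.654 for Igll1. It was -0.41 for Flt3 and -0.98 for Igkc. For Polm, of the polymerase X family, it was 0.904.

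**Figure D5:**
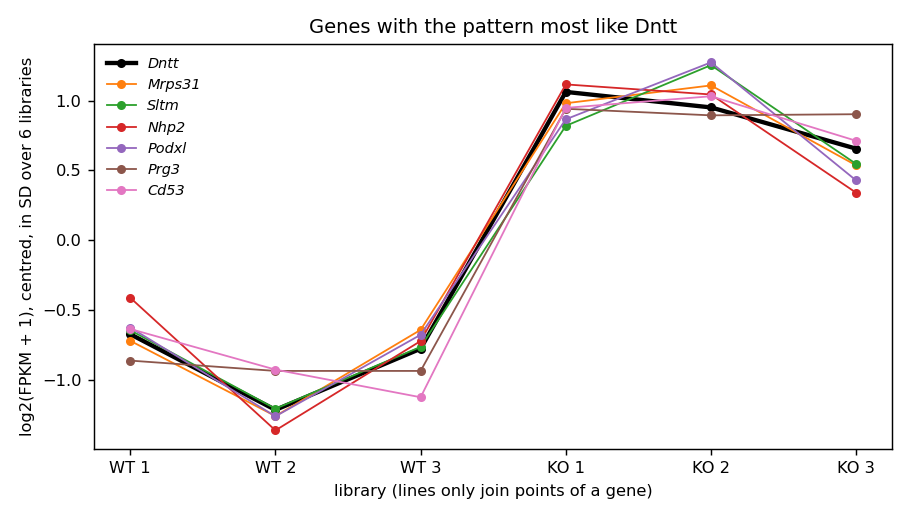
Log2(FPKM + 1) of Dntt and the 6 genes of highest Pearson's r with it, each centred on its mean and divided by its SD over the 6 libraries, so the axis shows shape and not size. All 7 genes are below 0 in the wild-type libraries and above 0 in the KO libraries.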

How the data were processed

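The authors deposited 1 table of FPKM per gene symbol, a column for each library. Per the submitters' processing notes, fastp, Bowtie2 and featureCounts were used with mm10, with no versions. Whether counting used strand, and what was done with multiply mapped reads, is not stated in the sources used here. An aligner that does not splice reads, as Bowtie2, loses those across exon junctions. Columns were matched to samples, and samples to groups, by the titles.

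Symbols were matched to GENCODE M21 for exon lengths (14669 genes, 97.9%). FPKM times length was a whole multiple of 1 step per library within 0.05 for 97.9% to 98.3% of values under 100 reads, which gave 18059320 to 25709644 reads per library. The 11837 genes whose mean reached 1 FPKM were fitted on log2(FPKM + 1) in limma 3.58.1 (R 4.3.3; lmFit, eBayes with a variance trend). Tests were two-sided, p-values were adjusted by Benjamini and Hochberg over every tested gene, and the threshold was 0.05. The fit was tested on simulated data. Ratios are of mean FPKM. Figures used matplotlib 3.10.9 in Python 3.11.15.

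Named were Dntt and its family, the passing members and up to 4 of smallest p of the 4 pathway lists, 8 defining lymphoid genes, the 2 nearest coding genes on each side, the 6 genes most like Dntt, Zcchc8 and Igkc. Cd79b, Ighm, Bst2, Mpo, Elane and the interactors are named besides. The values of 2 list members under this rule are not reported here; the counts and sums include them. The gene, the lists and the rules were chosen with earlier results of these data known. The antigen receptor genes were taken by GENCODE biotype after the files were seen. Alternatives changed the pseudocount, filter, scaling, variance trend, block, libraries and, with limma-voom, the unit.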

Additional observations from a re-analysis of the deposited data

How the results depend on the processing

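The Dntt difference of 2.84 on the log2(FPKM + 1) scale was 3.54 with a pseudocount of 0.1 and 3.66 with limma-voom on recovered reads. It moved by less than its replicate SD under the other 14 alternatives. Among these, the changed filters, the fit without a variance trend and the replicate block cannot alter a difference of group means. They left it at 2.84 by design and are no check of it. The count of genes higher in KO, 21, was 6 without a variance trend, 5 with limma-voom, 10 with the replicate block and 8 to 14 when a library was left out. The count of lower genes, 6, was 2, 3, 1 and 1 to 5 under the same settings, and 3 without a filter. The 1 call among lymphoid receptors became 0 without a variance trend, with limma-voom and with the replicate block, and ranged from 0 to 1 over the removals of a library. The other 3 lists had no call in any alternative run. Same-numbered libraries did not deviate together (correlations of 0.02, 0.01 and 0.00 over genes), so the block pairs only numbers. Of 30 other named genes, 3 changed sign in 1 setting each and none of these passed the test. Over the removals of a library, the log2 change ranged from -0.65 to 0.023 for Polb (positive without KO library 3), from -0.086 to 0.30 for Zfp518a (negative without KO library 3) and from -0.11 to 0.37 for Zcchc8 (negative without KO library 1). The cause of these changes was not tested. Low read numbers limit Rag1, Rag2, Il7r, Pax5 and Blnk, which were below the filter.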
